A study of Mus musculus with 4 samples.

Results

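The thermogenic fat genes described here were 8 genes that mark heat-producing brown and beige fat: Ucp1, Cidea, Dio2, Ppargc1a, Ppargc1b, Prdm16, Elovl3 and Adrb3. They were chosen by symbol, and each was matched to 1 of the 22913 genes listed for dermal white adipose tissue (dWAT), the fat layer beneath the dermis that surrounds the lower ends of hair follicles (HFs). Differences past the threshold lay mostly between phases of the hair cycle, for these genes as for all genes. In YAD against YTD 1 of the 8 was higher and 3 lower, and in OAD against OTD 1 was higher and 1 lower. Over all genes 16.1% were higher at each age, and 16.7% in young and 15.6% in old mice were lower. Ucp1 was at or under 3 fragments in each library, Elovl3 was 46.6-fold higher in YAD than YTD and 57.4-fold higher in OAD than OTD, and Ppargc1a was 3.04-fold and 4.0-fold lower in the same comparisons. Relative to adipocyte markers the log2 difference of Ppargc1a was 0.04 in young mice and, still lower in anagen, -0.33 in old mice. For each 1000 FPKM of the geometric mean of these markers, Ppargc1a had 25.2 in YTD and 26.2 in YAD. In OTD it had 18.4 and in OAD 13.2. Between ages, the only gene of the 8 past the threshold was Adrb3, 2.26-fold higher in OAD than YAD, and this depended on the scaling between libraries.

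The 4 libraries came from C57BL/6 mice: OTD (old mice, telogen, the resting phase of the HF), YTD (young mice, telogen), OAD (old mice, anagen, the growth phase) and YAD (young mice, anagen). The protocol gives ages of 18 months for aged and 2 months for young mice, and anagen was induced by depilation, so in the anagen groups a new hair cycle, plucking and its aftermath come together and cannot be told apart. The age tag of YTD reads 18 months and that of OAD 2 months, against the titles of these samples, and groups were taken from the titles. Tissue of several mice per group was used according to the methods, dWAT was scraped from beneath the HFs after the fat and muscle under it had been removed, and each group has 1 library, so no difference below has a replicate check or a p-value.

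Brown and beige adipocytes burn fuel to make heat. Cold causes sympathetic nerves to release noradrenaline, which acts on beta-adrenergic receptors of the adipocyte and raises cyclic AMP. This switches on genes for mitochondrial biogenesis and for uncoupling protein 1, which lets protons flow back into the mitochondrion without making ATP. White adipocytes carry the same receptor, coupled mainly to the release of fatty acids, and have little or no uncoupling protein 1. Several of the 8 genes also serve other cells of skin: Ppargc1a acts in skeletal muscle, and Elovl3 is made in HFs and sebaceous glands.

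The deposited values are FPKM, the fragments of a gene scaled by the length of its transcript and by the fragments of the library. From the value of 1 fragment the depth was put at 18700000 fragments for OTD and 16200000 for YTD, and at 20500000 for OAD and 22400000 for YAD. These are rough, and fragment numbers below are such estimates. Intervals of folds are exact binomial (Clopper-Pearson) intervals at 95%, and intervals of levels in the plot are exact Poisson intervals. Both cover counting error in these libraries and nothing else, and PCR copies are counted as separate fragments. Differences are given as the first minus the second library in log2(FPKM + 1), a scale that understates changes at low FPKM. A gene was called past the threshold when the difference was at least 1 in size. In bulk tissue, fewer cells of a type and less RNA per cell cannot be told apart. Genes of the mitochondrial genome held 52.7% and 44.7% of summed FPKM in OTD and YTD but 18.3% and 14.4% in OAD and YAD, so levels between phases depend on the scaling.

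Ucp1 (ENSMUSG00000031710, chromosome 8 from 83290348 to 83298456 on GRCm38) encodes the uncoupling protein itself. Its FPKM was 0.122 in OTD, 0.0316 in OAD, and 0 in YTD and YAD. These values stand for 3 fragments in OTD and 1 in OAD, all at or under the floor of 3 fragments, which lies between 0.0938 and 0.126 FPKM in these libraries. No fold is therefore given, and no difference in Ucp1 was detectable at this depth. The adipocyte markers of the same libraries were far above this, with FPKM of at least 1 for all 15 in every library and a median from 73.5 in YAD to 264 in YTD.

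Adrb3 (ENSMUSG00000031489, chromosome 8 from 27225776 to 27229588), the beta-3 adrenergic receptor of adipocytes, had the highest FPKM of the 8 genes in both telogen libraries. It had 21.8 in OTD and 17.5 in YTD, against 12.6 in OAD and 5.57 in YAD. The libraries ranked in that order, and each step was beyond counting error, the smallest being 1.25-fold from YTD to OTD (95% interval 1.08 to 1.44). At 21.8 FPKM it lay above 85.8% of all genes in OTD, and at 5.57 above 62.1% in YAD.

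Dio2 (ENSMUSG00000007682, chromosome 12 from 90724554 to 90738438) encodes the deiodinase that turns thyroxine into the active hormone T3 inside the cell, and is known as a gene switched on by cyclic AMP. Its FPKM was 1.17 in OAD, 0.472 in YAD, 0.229 in YTD and 0.159 in OTD, from 138, 59, 21 and 16 fragments. Both anagen libraries were thus above both telogen libraries. The steps from OAD to YAD and from YAD to YTD were beyond counting error, and that from YTD to OTD was not, with a fold of 1.44 (0.739 to 3.05).

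Ppargc1a (ENSMUSG00000029167, chromosome 5 from 51454249 to 51567725) encodes PGC-1alpha, a coactivator that drives mitochondrial biogenesis and is likewise induced by cyclic AMP. It took the opposite course to Dio2, with FPKM of 5.90 in YTD, 4.74 in OTD, 1.94 in YAD and 1.19 in OAD. Each step in this order was beyond counting error.

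RefSeq start sites of 4 of the 8 genes were in the promoter table used here, and the upstream 250 bases of Dio2 and Ppargc1a are shown because these genes, both known to answer to cyclic AMP, differed in opposite directions between phases. The sequences lie at chr12:90739039-90739288 and chr5:51567726-51567975 of GRCm38.p6, both on the minus strand, and are written 5′ to 3′ up to the base before the RefSeq start. For Dio2 that start lies 600 bases upstream of the start of the gene in the deposited files, and for Ppargc1a the 2 starts are the same. Capitals mark the cyclic AMP response element TGACGTCA, its first 6 bases TGACGT on either strand, and the TATA box TATAAA.
Dio2: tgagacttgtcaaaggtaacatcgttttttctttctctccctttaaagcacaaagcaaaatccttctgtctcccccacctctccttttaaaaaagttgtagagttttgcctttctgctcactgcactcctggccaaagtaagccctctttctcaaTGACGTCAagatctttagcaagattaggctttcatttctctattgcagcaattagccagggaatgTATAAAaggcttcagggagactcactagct
Ppargc1a: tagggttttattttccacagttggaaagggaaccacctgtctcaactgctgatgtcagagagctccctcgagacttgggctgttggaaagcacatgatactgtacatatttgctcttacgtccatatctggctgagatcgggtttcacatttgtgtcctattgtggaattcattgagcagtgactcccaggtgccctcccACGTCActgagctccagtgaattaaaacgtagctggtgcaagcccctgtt

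The Dio2 window held a whole TGACGTCA starting 95 bases upstream of the start site and a TATAAA starting 30 bases upstream. Among 32851 promoters of the same length, 1.55% held TGACGTCA and 12.4% held TATAAA on either strand. The Ppargc1a window held neither, but had TGACGT on the opposite strand, starting 50 bases upstream. That shorter motif, which is part of each TGACGTCA, was in 6.47% of promoters. The Ucp1 and Prdm16 windows held none of the 3 motifs, and Cidea, Ppargc1b, Elovl3 and Adrb3 were not analysed in this way here. A match describes letters in a window and is not evidence of binding.

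Ppargc1b (ENSMUSG00000033871, chromosome 18 from 61298136 to 61400431), the close relative of Ppargc1a, ranked the libraries in the same order as Ppargc1a but over a smaller range, with 1.62 in YTD, 1.52 in OTD, 1.3 in YAD and 0.908 in OAD. Of its 3 steps, only that from YAD to OAD was beyond counting error (1.43-fold, 1.03 to 2.04). Prdm16 (ENSMUSG00000039410, chromosome 4 from 154316125 to 154636873), a transcription factor that sets brown and beige fat identity, had FPKM of 1.19 in OTD and 1.10 in YTD, against 0.465 in OAD and 0.295 in YAD. The telogen libraries were the higher pair and did not differ from each other beyond counting error (1.08-fold, 0.862 to 1.34). Cidea (ENSMUSG00000024526, chromosome 18 from 67343564 to 67367794) encodes a lipid droplet protein of brown fat that is also found in sebaceous glands. It had 2.98 in YTD, 2.00 in OTD, 1.58 in OAD and 0.673 in YAD, from 46, 31, 33 and 14 fragments. YAD stood below the other 3 libraries, and among those the neighbouring steps were within counting error.

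Elovl3 (ENSMUSG00000038754, chromosome 19 from 46131897 to 46135307) encodes an elongase of very long chain fatty acids that is induced by cold in brown fat. It had FPKM of 62.2 in YAD, 39.3 in OAD, 1.33 in YTD and 0.685 in OTD, and it was the gene of the 8 with the highest FPKM in both anagen libraries. The anagen libraries exceeded the telogen libraries by a wide margin, and within each phase the young library was the higher.

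**Figure D1:**
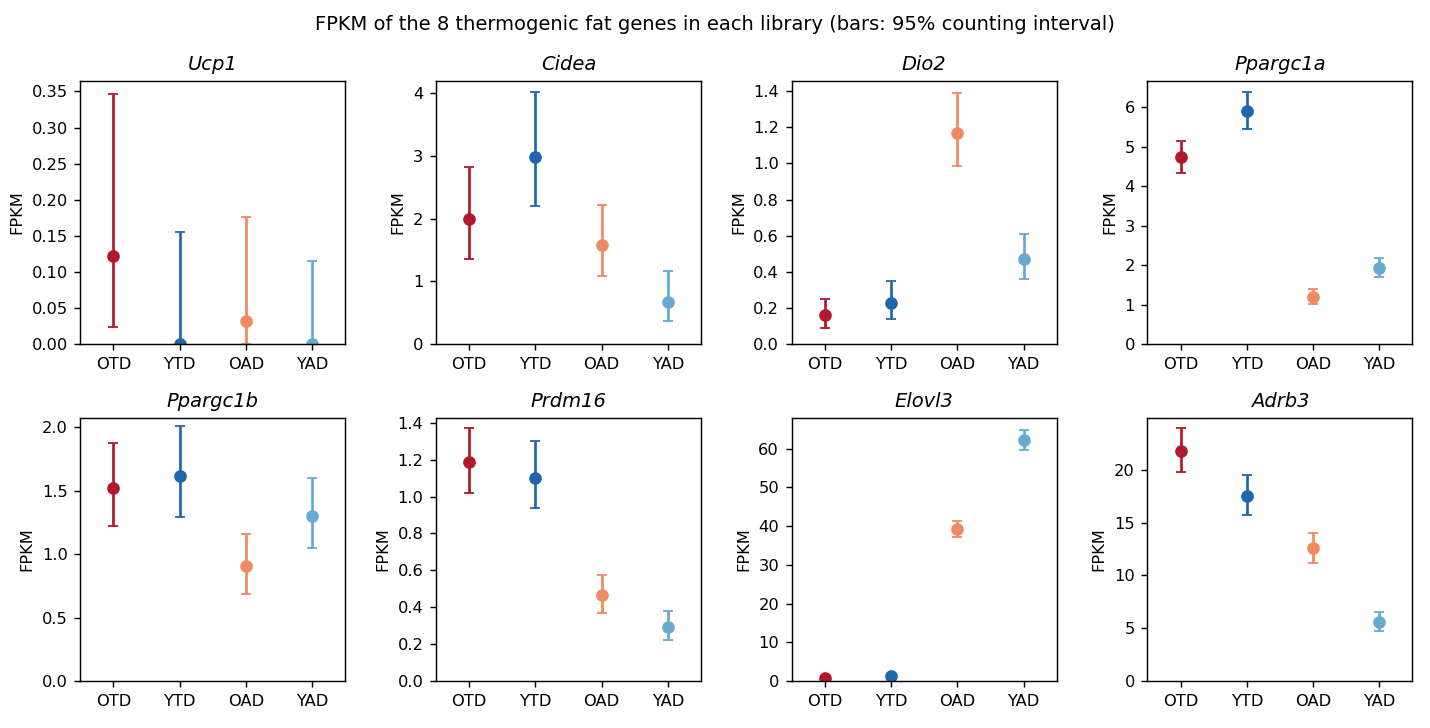
FPKM (vertical axes, linear, separate scale for each gene) of the 8 genes in the OTD, YTD, OAD and YAD libraries; points are the deposited values and bars the 95% Poisson interval from estimated fragments. Elovl3 and Dio2 sit higher in both anagen libraries, Ppargc1a, Prdm16 and Adrb3 higher in both telogen libraries, and the values of Ucp1 reach 0.122 at most.

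The first comparison asked how dWAT of old and young mice differed in telogen. None of the 8 genes was past the threshold, with log2 differences of OTD minus YTD from -0.47 to 0.30 and a median of -0.07, beside a median of -0.03 over 17230 genes. Of those genes, 1.67% were higher and 1.93% lower by at least 1. Of the 8 differences, 3 went beyond counting error. Adrb3 was 1.25-fold higher in OTD, Ppargc1a 1.24-fold lower (1.11 to 1.40) and Elovl3 1.95-fold lower (1.13 to 3.63). The direction of each of these 3 held under all 5 rescalings, whereas those of Ppargc1b and Prdm16, at -0.06 and 0.06, did not. The sizes varied, from 0.17 to 0.51 for Adrb3, -0.34 to -0.08 for Ppargc1a and -0.44 to -0.36 for Elovl3. Without mitochondrially encoded genes Ppargc1a went from -0.27 to -0.08, a shift larger than counting error.

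The second comparison asked the same in depilation-induced anagen. Adrb3 was past the threshold, with 12.6 FPKM in OAD and 5.57 in YAD, a log2 difference of 1.05 and a fold of 2.26 (1.84 to 2.77). No other gene of the 8 was, against 0.727% higher and 0.454% lower among 17613 genes. The median of the 8 was 0.11 beside 0.0 over those genes, with 5 genes higher and 3 lower in OAD. Dio2 and Cidea were also over 2-fold apart in FPKM but short of the threshold on the log2(FPKM + 1) scale, which understates folds at such levels. Dio2 was 2.48-fold higher in OAD (1.83 to 3.44), a log2 difference of 0.56, and Cidea 2.35-fold higher (1.19 to 4.62), a log2 difference of 0.63. Prdm16 was 1.58-fold higher (1.11 to 2.27). The coactivators went the other way, Ppargc1a being 1.64-fold lower in OAD (1.34 to 2.01) and Ppargc1b 1.43-fold lower, as did Elovl3, 1.58-fold lower (1.5 to 1.69). The directions of these 7 genes held under all 5 rescalings. The log2 difference of Adrb3 then ranged from 0.83 to 1.06, and it was short of 1 in TPM, without mitochondrially encoded genes, without these and muscle genes, and relative to the adipocyte markers, where it was 0.86, 0.90, 0.90 and 0.83. The median of all genes with FPKM of at least 1 itself moved by -0.21, -0.15, -0.14 and -0.26 under these 4.

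All 15 adipocyte markers had higher FPKM in OAD than in YAD as well, by a median log2 difference of 0.30 and a 1.22-fold higher geometric mean, 90.0 against 74.1 FPKM. The part of this in the higher Adrb3, Dio2, Cidea and Prdm16 was not tested beyond the rescaling to these markers. For each 1000 FPKM of that geometric mean, Adrb3 had 139 FPKM in OAD, 75.1 in YAD, 74.8 in YTD and 85.0 in OTD, so OAD was above the other 3 libraries, which lay close together. Ppargc1a had 13.2 in OAD and 26.2 in YAD on this scale.

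**Figure D2:**
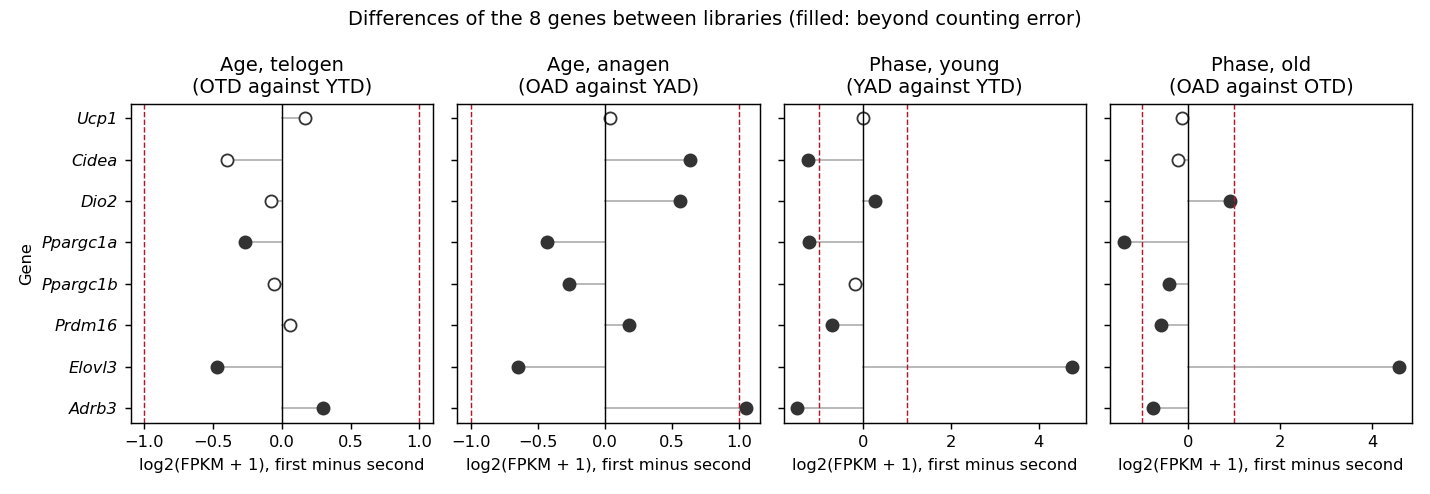
Differences in log2(FPKM + 1) (horizontal axes, first minus second library) of the 8 genes in the 4 comparisons; filled points are beyond counting error, open points within it, and dashed lines mark the threshold of 1. In telogen no point passes a line, in anagen Adrb3 does at 1.05, and Elovl3 reaches 4.76 and 4.58 between phases.

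The other 2 comparisons set anagen against telogen at each age, and they share libraries with the comparisons above. In young mice, Elovl3 was past the threshold in the direction of YAD, with a log2 difference of 4.76, and Adrb3 (-1.50), Cidea (-1.25) and Ppargc1a (-1.23) were past it in the direction of YTD. Of 17622 genes, 16.1% were higher and 16.7% lower in YAD by at least 1, so 3 of 8 lower and 1 of 8 higher stand beside a large background. The median of the 7 genes listed above 0 was -0.70, beside 0.02 over all genes. As folds, Adrb3 was 3.15-fold lower in YAD (2.57 to 3.85), Cidea 4.42-fold lower (2.36 to 8.59) and Ppargc1a 3.04-fold lower (2.63 to 3.53). Prdm16 was 3.74-fold lower (2.76 to 5.24), although at its low level this gave a log2 difference of -0.70. Dio2 was 2.06-fold higher (1.23 to 3.55).

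In old mice, Elovl3 was past the threshold upward, at 4.58, and Ppargc1a downward, at -1.39, where 16.1% of 17712 genes were higher and 15.6% lower in OAD. The median of the 8 was -0.31 beside 0.01 over all genes. Dio2 was 7.36-fold higher in OAD than OTD (4.51 to 13.7), with a log2 difference of 0.91 that stopped short of 1. Ppargc1a was 4.0-fold lower (3.34 to 4.81), Prdm16 2.55-fold lower (1.97 to 3.37), Adrb3 1.74-fold lower (1.5 to 2.01) and Ppargc1b 1.68-fold lower (1.20 to 2.39). Cidea, 1.26-fold lower (0.751 to 2.14), did not differ beyond counting error.

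Adipocyte markers were lower in anagen too. Their geometric mean was 3.16-fold lower in YAD than YTD and 2.85-fold lower in OAD than OTD, and all 15 were lower at both ages. Scaled to these markers, which moved the median of all genes with FPKM of at least 1 by 1.42 in young and 1.27 in old mice, Adrb3 was 0.01 from YTD to YAD and Ppargc1a 0.04, where both had been past the threshold as deposited. Prdm16 was then at -0.09 in young and 0.07 in old mice. In old mice Adrb3, Cidea and Ppargc1b changed sign under this scaling, to 0.67, 0.73 and 0.40, and Ppargc1a was at -0.33. For each 1000 FPKM of adipocyte markers Prdm16 had 4.62 in OTD and 4.72 in YTD, against 5.16 in OAD and 3.98 in YAD, a smaller range than in FPKM. In TPM, which shifted the median of all genes by 0.73 in young and 0.53 in old mice, Adrb3, Ppargc1a, Cidea and Prdm16 stayed below 0 in young mice, at -0.74, -0.59, -0.78 and -0.40, whereas Ppargc1b was at 0.32. In old mice they were at -0.17, -0.96, 0.18 and -0.31 in TPM, so that Cidea changed sign. Elovl3 and Dio2 were higher in anagen under each of the 5 rescalings, Elovl3 by 4.36 to 6.05 and Dio2 by 0.26 to 1.38.

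**Figure D3:**
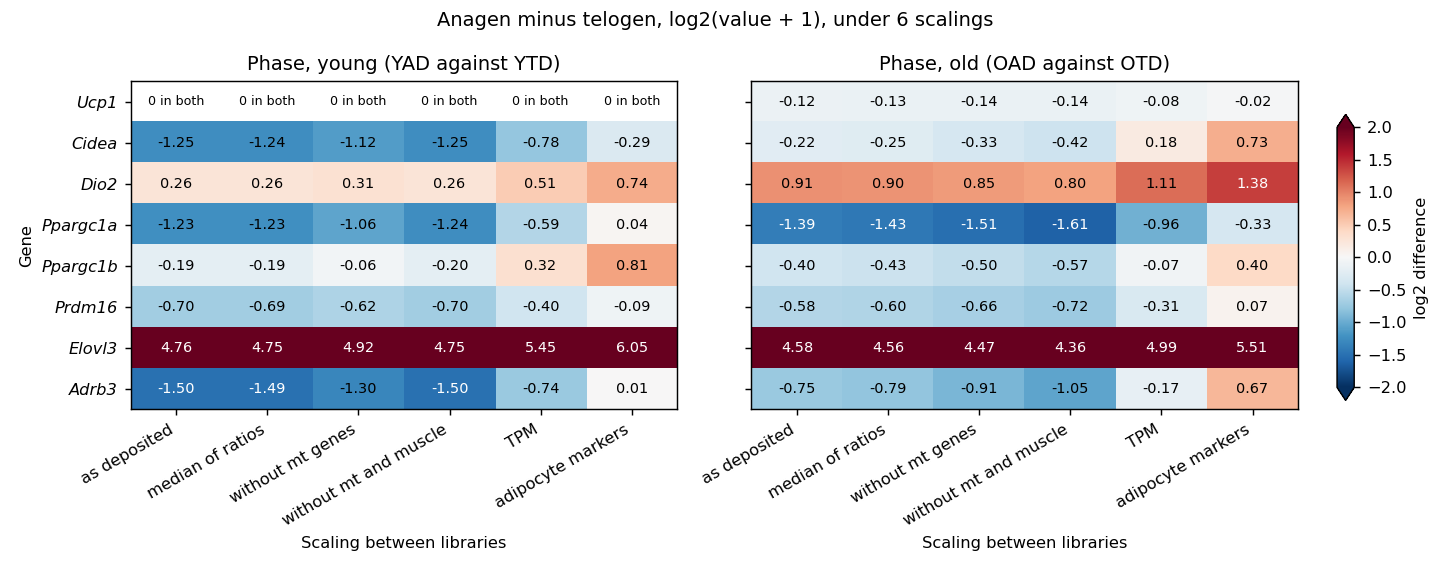
Log2 differences, anagen minus telogen, of the 8 genes (rows) under 6 scalings between libraries (columns) in young and old mice; colour runs from -2 (blue) to 2 (red) and the value is written in each cell. Elovl3 and Dio2 stay above 0 throughout, whereas Adrb3 in young mice goes from -1.50 as deposited to 0.01 relative to the adipocyte markers.

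Markers of neighbouring tissues moved along with several of these genes. All 15 matched genes of the hair shaft and inner root sheath were past the threshold upward in anagen at both ages, and their FPKM summed to 272 in OTD and 479 in YTD, against 26465 in OAD and 20880 in YAD. For each 1000 FPKM of the geometric mean of these markers, Elovl3 had 83.3, 75.2, 32.9 and 60.5 FPKM in OTD, YTD, OAD and YAD. This was a far smaller range than that of its own levels. Elovl3 was lower in OAD than YAD, while the geometric mean of these markers was 1.16-fold higher. Of the 15 markers, 8 were higher and 7 lower in OAD. The higher ones were Krt25, Krt27, Krt28, Krt71, Krt72, Krt73 and Tchh of the inner root sheath, and Krt86, up to 1.06 for Krt72. The lower ones were Krt31, Krt33a, Krt33b, Krt35, Krt81, Hoxc13 and Msx2, down to -0.39 for Krt35, beside -0.65 for Elovl3. The 8 sebaceous gland markers summed to 13.0 and 8.55 FPKM in OTD and YTD and to 38.3 and 20 in OAD and YAD, and 3 of the 8 reached 1 FPKM in each library. Krt79, a keratin of the gland's duct, accounted for 32.3 of the sum in OAD and 13.2 in YAD. Of the markers listed above 0, 6 of 7 were higher and 1 lower in YAD than YTD. In OAD against OTD 5 of 8 were higher and 3 lower. The lipid enzymes Awat1 and Dgat2l6 were listed at 0 in 2 and 3 of the 4 libraries, while Awat2 and Mc5r were above 0 in each. The part of HF tissue and of sebaceous glands in the level of Elovl3 was not tested.

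Skeletal muscle markers were the other group with a wide range. They held 5.69% and 8.98% of summed FPKM in OTD and YTD, and 2.07% and 1.83% in OAD and YAD, and all 15 were lower in anagen at both ages. Their geometric mean was 7.30-fold lower in YAD than YTD and 3.65-fold lower in OAD than OTD, beside 3.04-fold and 4.0-fold for Ppargc1a. All 15 were also lower in OTD than YTD, by a 1.69-fold lower geometric mean, as was Ppargc1a. In anagen, where 12 of the 15 were higher in OAD, Ppargc1a was lower. The part of muscle in the level of Ppargc1a was not tested. Among the remaining marker lists, all 7 macrophage and all 7 endothelial markers were higher in OTD than YTD, as were 5 of 6 fibroblast markers. All markers of these 3 lists were lower in anagen than in telogen at both ages. In anagen all 7 macrophage and all 6 fibroblast markers were lower and all 7 endothelial markers higher in OAD than YAD, and 6 of 7 keratinocyte markers were higher in anagen at both ages.

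A wider set of 95 genes in 9 lists of thermogenic pathways, all matched, was compared in the same way. Between ages, 2 were higher and 1 lower past the threshold in telogen, and none in anagen, with medians of 0.03 and 0.06. Of all genes 1.67% were higher and 1.93% lower in telogen, and of the pathway genes listed above 0 it was 2.17% and 1.09%. Between phases, 15 were higher and 26 lower in YAD than YTD, and 16 higher and 26 lower in OAD than OTD, with medians of -0.41 and -0.35 as deposited. The higher genes were 16.0% and 17.0% of those listed above 0, near the 16.1% of all genes at each age, and the lower ones 27.7% at each age beside 16.7% and 15.6% of all genes. Adipocyte and muscle markers were lower in the same comparisons, and their part in this was not tested.

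Of the 6 relatives of Ucp1, mitochondrial carriers of the inner membrane, none passed the threshold between ages. Ucp2, widespread in immune and epithelial cells, had 67.2 and 92.2 FPKM in OTD and YTD and 203 and 178 in OAD and YAD, and so was abundant where Ucp1 was not. Ucp3 had 40.9, 26.7, 5.53 and 5.87 in that order. It was higher in OTD than YTD, by 0.60, where all 15 skeletal muscle markers were lower. Slc25a4, the muscle form of the ADP/ATP carrier, was highest in the list, with anagen minus telogen differences of -2.95 in young and -2.15 in old mice, while those of its relative Slc25a5 were 1.87 and 1.74. Ucp3 and Slc25a4 thus went the opposite way to Ucp2 and Slc25a5 between phases, though Ucp2 in young mice stopped short of the threshold at 0.94. Past the threshold, 16.7% of the list were higher and 33.3% lower in anagen in young mice, and 50.0% and 33.3% in old mice. Of all genes 16.1% were higher at each age, and 16.7% and 15.6% lower.

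Of 16 brown and beige identity genes, Cited1, a beige fat marker, was the only 1 past the threshold with age, with 2.37 FPKM in OTD and 0.396 in YTD. It made up 6.25% of the list, beside 1.67% of all genes higher in telogen. Ebf2 and P2rx5 stopped just short in telogen, at 0.96 and -0.90. In anagen 5 were lower and 1 higher past the threshold in young mice, and 7 lower and 1 higher in old mice. The lower genes were 31.2% and 43.8% of the list, beside 16.7% and 15.6% of all genes, and the higher gene 6.25%, beside 16.1%. Cox8b and Cox7a1, subunits of cytochrome oxidase found in brown fat, heart and skeletal muscle, had 3392 and 1245 FPKM in YTD and 323 and 142 in YAD. The 1 that was higher was Tbx1, a transcription factor of beige fat and of HF stem cells, with 13.2 FPKM in YTD and 42.0 in YAD. Slc36a2, an amino acid transporter of the surface of brown adipocytes, had 18.5 in OTD and 4.41 in OAD, and Epsti1 had 3.22 in YTD and 0.258 in YAD. Zic1, Lhx8 and Ebf2, which mark classical brown fat and its precursors and were singled out after their values were seen, had at most 4.88, 0.461 and 3.60 FPKM, each in OTD.

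Among 14 genes of adrenergic and cyclic AMP signalling, 4 were lower and 1 higher past the threshold in anagen at each age, or 28.6% and 7.14% of the list beside 16.7% and 15.6% of all genes lower and 16.1% higher. Gnas, which encodes the stimulatory G protein, had 369 FPKM in YTD and 89.0 in YAD. Pde3b, the phosphodiesterase through which insulin lowers cyclic AMP, was past the threshold at both ages, with log2 differences of -1.45 in young and -1.71 in old mice. The 1 gene that was higher was Adcy3, an adenylyl cyclase, at 0.527 in YTD and 2.81 in YAD.

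Of 8 genes of thyroid hormone handling, Dio3, the deiodinase that inactivates T3, had 0.441 and 0.554 FPKM in OTD and YTD and 5.35 and 5.53 in OAD and YAD. Both the activating Dio2 and the inactivating Dio3 were thus higher in anagen. Crym, which encodes a protein that binds T3 in the cytosol, had 9.72, 13.6, 674 and 367 in that order, the largest phase difference of these lists at 5.98 in old and 4.65 in young mice. Thrsp, a lipogenic gene that thyroid hormone induces, had 282 in YTD and 82.9 in YAD. Past the threshold in anagen, 28.6% of the genes listed above 0 were higher and 14.3% lower in young mice. In old mice it was 25.0% and 12.5%. Of all genes 16.1% were higher at each age, and 16.7% and 15.6% lower.

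Among 16 partners and regulators of PGC-1, 2 were higher and 2 lower past the threshold between phases at each age. Either count is 12.5% of the list, below the 15.6% to 16.7% of all genes in each direction. Pprc1, a further member of the PGC-1 family, had 3.42 and 4.68 FPKM in OTD and YTD and 13.6 and 16.0 in OAD and YAD, with differences of 1.58 in young and 1.72 in old mice beside -1.23 and -1.39 for Ppargc1a. Cebpb, a transcription factor that partners PRDM16, had 70.7 in OTD and 262 in OAD. The receptor Esrrg had 4.05 in YTD and 0.331 in YAD, Nfia had 5.73 and 1.66 there, and Foxc2 had 2.71 in OTD and 0.781 in OAD. Of 10 fatty acid oxidation genes, 7 were lower in YAD and 5 in OAD past the threshold and 1, Cpt1a, was higher in YAD at 1.28. The lower genes were 70.0% and 50.0% of the list, beside 16.7% and 15.6% of all genes. The largest difference was that of Cpt1b, the muscle and brown fat form of the carnitine transferase, with 86.8 in YTD and 14.2 in YAD.

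Of 11 genes of energy cycles that do not use UCP1, 1 was higher and 1 lower past the threshold with age in telogen. Each was 9.09% of the list, beside 1.67% higher and 1.93% lower among all genes. Both are enzymes of creatine synthesis. Gatm, which makes the creatine precursor, had 33.5 FPKM in OTD and 16.2 in YTD, a difference of 1.01. Gamt, which completes creatine, had 36.8 and 76.8, a difference of -1.04. The creatine kinases Ckb and Ckmt2 stopped short of the threshold, at 0.87 and -0.84. Between phases Ckmt1 and Ckmt2, the ubiquitous and the muscle mitochondrial creatine kinase, went opposite ways, by 3.59 and -3.07 in young mice. Pm20d1, a secreted enzyme that makes uncoupling N-acyl amino acids, was higher in YAD by 2.05. Past the threshold, 27.3% of this list were higher and 27.3% lower in anagen at each age. Of all genes 16.1% were higher at each age, and 16.7% in young and 15.6% in old mice were lower. Among 8 relatives of Cidea and Elovl3, Elovl4, Elovl6 and Elovl7 were higher in anagen at both ages, Elovl4 by 2.82 and 3.16, while Cidec, the CIDE protein of white adipocytes, was lower, at -1.77 and -1.82. These were 37.5% higher and 12.5% lower of the list at each age, beside the shares of all genes just given. Of 6 secreted factors, Nrg4 was lower in anagen, at -1.73 and -2.0, and Metrnl higher, at 2.35 and 2.25. Fgf21 and Bmp8b, the other factors best known from brown fat, were chosen after their values were seen and stayed under 1 FPKM in each library.

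**Figure D4:**
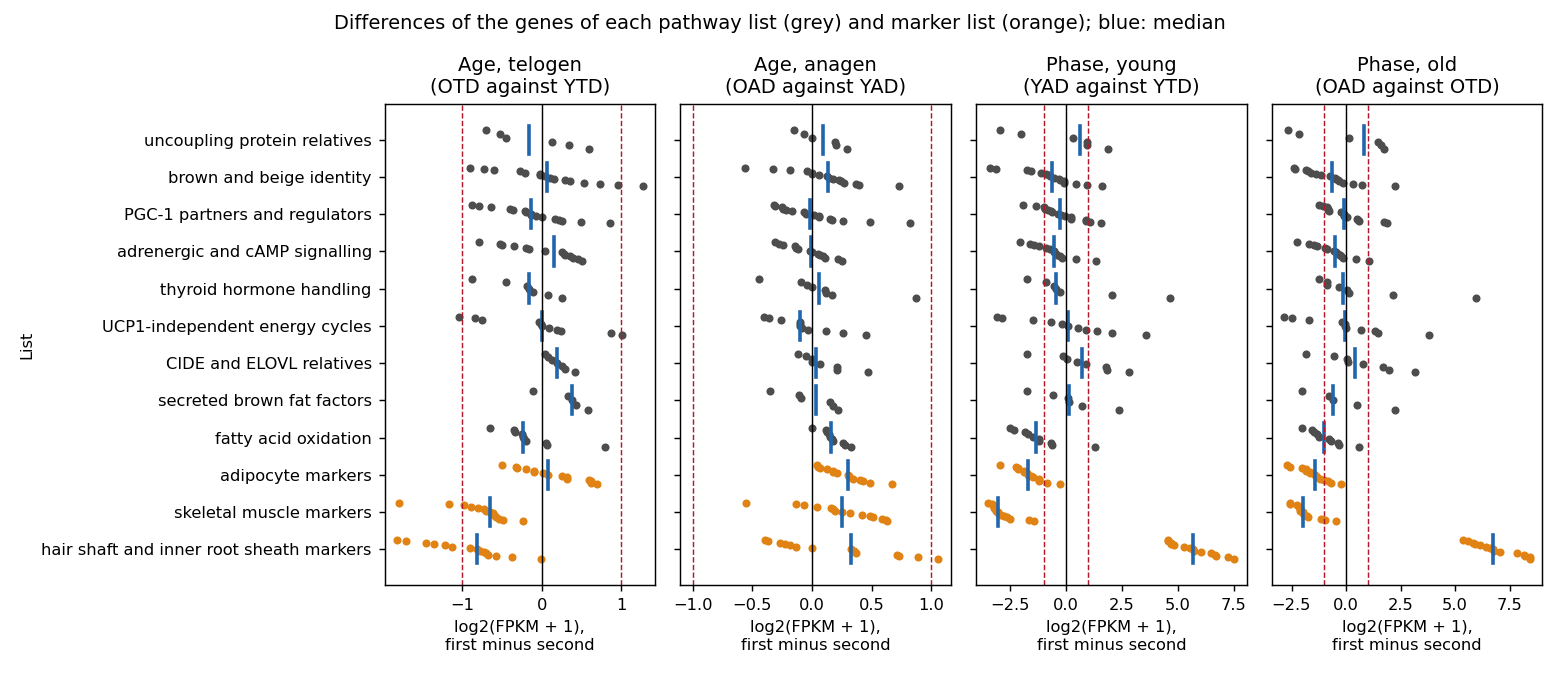
Differences in log2(FPKM + 1) (horizontal axes, first minus second library, separate scale for each comparison) for genes of the 9 pathway lists (grey) and 3 marker lists (orange); each point is a gene, blue lines are medians and dashed lines the threshold of 1. Pathway genes gather near 0 between ages and spread to both sides between phases, while muscle and adipocyte markers lie to the left and hair markers to the right.

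The genes with the most similar pattern were found by Euclidean distance between log2(FPKM + 1) values centred over the 4 libraries, among 14203 genes with FPKM of at least 1, for the 4 members that spanned at least 1. With 4 points this describes the profile and no more. Nearest to Elovl3 were Trpm1, a cation channel of melanocytes (distance 0.05, with 0.828, 1.65, 44.4 and 70.5 FPKM in OTD, YTD, OAD and YAD), Mouse_newGene_230, a locus outside the annotation, and Sox21, a transcription factor of the hair shaft (0.21). Nearest to Adrb3 were Hlx (0.19), Hba-a2, an alpha globin with a near-identical copy whose reads may be shared (0.19), and Prtn3, a protease of neutrophil granules (0.23). Ppargc1a lay nearest to the loci Mouse_newGene_2696 and Mouse_newGene_2262 and to Nkiras1, and Cidea to Gm37240, Cfap126 and Nes, all at distances of 0.05 to 0.08.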

How the data were processed

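RNA of dWAT was sequenced in 4 libraries, 1 per group. The authors deposited FPKM for 22913 genes, with positions on GRCm38, and the submitters' processing notes name bcl2fastq and TopHat2. The counting tool and any scaling between libraries are not given in the sources used here. Symbols were matched for 21750 identifiers. Depth was estimated from the value of 1 fragment among 4148 single-transcript genes of GENCODE M21, using those of 1500 to 5000 bases, and 58.0% to 80.0% of the low values of these genes per library lay within 0.2 of a whole number of fragments. Evenly spread values would also often lie that close, so this is a weak check and fragment numbers are rough. Listed lengths were coding lengths for 97.9% of annotated coding genes, and fragment numbers used the length of a whole transcript instead. For Dio2 this was 5815 bases in place of 801, for Ppargc1a 6464 in place of 2394 and for Prdm16 8601 in place of 3831. With the listed lengths their fragment numbers would be smaller and their intervals wider.

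Genes above 0 in at least 1 of the 2 libraries entered a comparison. Alternatives were pseudocounts of 0.1 and 0.01, an FPKM minimum of 1, a 1.5-fold threshold and 5 rescalings: TPM, median of ratios over 11181 genes, summed FPKM without mitochondrially encoded genes, the same also without muscle markers, and the geometric mean of 15 adipocyte markers. The steps were tested on simulated libraries. The members and lists were chosen with earlier results of these data known. Named genes are the 8 members, in each pathway list and comparison up to 4 genes past the threshold with the largest differences, the gene of each list with the highest mean FPKM, and the 3 nearest genes of each member that spans at least 1. A hair keratin of the lists was not analysed here. Some genes that this rule names are not reported here. Python 3.11.15, numpy 2.4.6, pandas 2.3.3, scipy 1.17.1 and matplotlib 3.10.9 were used.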

Additional observations from a re-analysis of the deposited data

Results flagged for a closer look

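Cidea and Dio2 had old-minus-young differences of opposite sign in telogen and anagen. That of Cidea was -0.40 in telogen and 0.63 in anagen, and that of Dio2 -0.08 and 0.56. With 1 library per group the difference between phases was not tested, and both telogen values were within counting error.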

How the results depend on the processing

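No paired analysis was possible because each group has 1 library, and leaving out a library was not possible for the same reason. The number of the 8 genes past the threshold was 0 for OTD against YTD, 1 for OAD against YAD, 4 for YAD against YTD and 2 for OAD against OTD. With a pseudocount of 0.1 it was 1, 3, 5 and 4, and with 0.01 it was 1, 4, 6 and 5, where the added gene in telogen was Ucp1 on 3 fragments. The number over all genes, given below, rose with both pseudocounts too. The OAD against YAD count was 0 in TPM, without mitochondrially encoded genes, without these and muscle markers, and relative to the adipocyte markers. The YAD against YTD count was 1 in TPM and 1 relative to the adipocyte markers. With a 1.5-fold threshold the counts were 0, 3, 5 and 4. Relative to the adipocyte markers, the YAD minus YTD differences of Ppargc1a and Adrb3 changed sign, to 0.04 and 0.01.

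Over all genes, the number past the threshold was 620, 208, 5767 and 5613 in the same order. A pseudocount of 0.01 raised it to 3445, 2435, 9761 and 9616, and 0.1 to 2144, 1109, 8468 and 8312. In TPM it was 538, 279, 7165 and 6425. A 1.5-fold threshold gave 2754, 875, 9213 and 9009, and the adipocyte scaling 367 for OAD against YAD, 9546 and 8965 between phases. The share of these genes that were higher was 46.3%, 61.5%, 49.1% and 50.8% as deposited, and over the 5 rescalings ranged from 27.3% to 72.5%, 30.5% to 64.3%, 48.6% to 94.4% and 37.7% to 96.0%. Of 242 recomputed differences of single members, 202 moved by no more than counting error, 38 by more, and 2 changed sign after having been past the threshold. The 202 include Ucp1 between ages, up to 3.73 in telogen and 2.06 in anagen. With 0 fragments in YTD and YAD its counting interval has no upper end, so no value could count as moved. Depth limits Ucp1 to a floor of 3 fragments.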
